A study of Mus musculus with 6 samples.

Results

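Tgfb3, Satb1, Cpm, Tcp11l2, Sorl1, Nod1 and Pold4 are the 7 genes examined, taken from 19818 genes measured by 21542 array features with a single gene symbol. They were chosen by measured values: their mean signal in B cells transduced with IKK K171E lay far below the mean in cells with empty vector, and each is read by 1 feature. Mature B cells of mouse spleen were activated, infected with a retrovirus that also carries green fluorescent protein, kept with mitogen for 36 hours and then without it for 24 hours, and sorted for the fluorescence. All 3 groups went through these steps: EV received the vector with the fluorescent protein alone, IKK_K171E the vector with IKK K171E, and MYD88_L265P the vector with MYD88 L265P. Each group has 2 Affymetrix mouse ST 1.0 arrays that the labels call biological replicates, and nothing in the labels says whether they came from separate mice, so p-values measure the spread between these arrays. Both constructs were added to the cells' own genes from a virus, the labels do not give the age or strain of the mice, and they name no subunit for IKK.

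IKK is the kinase complex that marks the inhibitors of NF-kB for destruction and so frees this transcription factor to enter the nucleus. MYD88 is the adaptor that carries signals from Toll-like and interleukin-1 receptors to IKK, and its L265P form, known from human B cell lymphoma, signals without a receptor ligand. The 7 genes belong to no common pathway. Tgfb3 encodes a secreted TGF-beta ligand, and Nod1 encodes a cytosolic sensor of bacterial cell wall fragments that signals through the kinase RIPK2 to NF-kB. Satb1 encodes a nuclear protein that binds AT-rich DNA and folds chromatin in lymphocytes, and Pold4 the smallest subunit of DNA polymerase delta, which copies DNA in replication and repair. Cpm encodes a carboxypeptidase anchored in the plasma membrane that trims basic residues from the ends of peptides, and Sorl1 the sorting receptor SORLA, which steers cargo between the Golgi and endosomes. Tcp11l2 belongs to the TCP11 family.

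The genes lie on 6 chromosomes of GRCm38.p6, with Cpm and Tcp11l2 both on chromosome 10. RefSeq places Tgfb3 at chr12:86056743-86079041, Satb1 at chr17:51736187-51833290, Cpm at chr10:117629500-117687352 and Tcp11l2 at chr10:84576947-84614355. Sorl1 lies at chr9:41964709-42124297, Nod1 at chr6:54923942-54972674 and Pold4 at chr19:4231893-4233634. Their lengths run from 1.74 kb for Pold4 to 159589 bases for Sorl1.

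The RefSeq promoter table of the same build held windows for 6 of the genes, and the 250 bases before the start nearest to the gene's 5′ end were read. The windows are shown as the sequence context of the chosen genes, and the 4 printed here are those with a match to any of the 7 motifs searched. Cpm is read from chr10:117629250-117629499, plus strand, Sorl1 from chr9:42124298-42124547, minus strand, Nod1 from chr6:54972613-54972862, minus strand and Pold4 from chr19:4231643-4231892, plus strand. Each runs 5′ to 3′ toward the start, and capitals mark the motif matches.
Cpm: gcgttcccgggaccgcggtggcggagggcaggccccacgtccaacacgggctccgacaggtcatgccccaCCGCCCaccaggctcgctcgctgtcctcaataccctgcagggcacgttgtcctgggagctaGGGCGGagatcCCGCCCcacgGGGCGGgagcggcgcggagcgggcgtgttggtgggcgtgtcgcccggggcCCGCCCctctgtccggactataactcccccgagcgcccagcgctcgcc
Sorl1: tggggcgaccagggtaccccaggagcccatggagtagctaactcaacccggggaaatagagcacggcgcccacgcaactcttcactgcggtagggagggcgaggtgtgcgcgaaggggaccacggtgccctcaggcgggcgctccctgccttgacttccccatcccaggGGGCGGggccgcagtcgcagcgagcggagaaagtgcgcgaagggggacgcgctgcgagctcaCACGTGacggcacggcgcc
Nod1: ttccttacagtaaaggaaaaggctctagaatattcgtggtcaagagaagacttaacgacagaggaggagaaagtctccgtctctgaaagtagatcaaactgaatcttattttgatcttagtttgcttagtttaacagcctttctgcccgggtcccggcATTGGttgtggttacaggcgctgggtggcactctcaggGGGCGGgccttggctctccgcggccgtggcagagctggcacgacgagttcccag
Pold4: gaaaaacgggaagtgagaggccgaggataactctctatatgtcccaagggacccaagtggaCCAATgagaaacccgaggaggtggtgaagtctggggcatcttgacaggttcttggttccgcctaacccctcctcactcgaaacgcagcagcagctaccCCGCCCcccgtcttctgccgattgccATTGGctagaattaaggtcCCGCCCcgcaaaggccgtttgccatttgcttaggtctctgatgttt

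Motifs were searched on both strands, and no matches overlapped each other. The GC box GGGCGG stood in 4 of the 6 windows, beside 33% of 27025 promoters: 5 times in Cpm, 2 times in Pold4 and 1 time each in Sorl1 and Nod1. The CCAAT box CCAAT stood in Nod1 and Pold4, beside 34.5% of all promoters, and the E-box CACGTG only in Sorl1 of these 6 windows, beside 6.04%. The letters of the kappaB motif, GGG, any 2 bases and TTTCC (1.41% of all promoters), the FOXO motif TGTTTAC (3.06%), the E2F motif TTTCCCGC (0.929%) and the CRE TGACGTCA (1.6%) were in none of the 6. The windows read for Satb1 and Tcp11l2 held none of the 7 motifs. The promoter table held 5 windows for Satb1 and 2 each for Sorl1 and Nod1, and their other windows were not searched. GC content ran from 51.6% in Nod1 to 74.4% in Cpm, against a median of 52% over all promoters, and CpG dinucleotides numbered 5 in Satb1, 12 in Nod1 and Pold4, 14 in Tcp11l2, 26 in Sorl1 and 30 in Cpm, against a median of 6. A match is a match of letters and no measured binding site.

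Array medians ran from log2 8.03 to 8.13 over all features of the table. Replicate arrays correlated at 0.989 to 0.995 over features and arrays of different groups at 0.967 to 0.99. Myd88 was higher in MYD88_L265P than in EV (log2 12.25 and 12.31 against 9.3 and 9.35), and Ikbkb, the gene of IKK beta, read 11.35 and 10.68 in IKK_K171E against 9.98 and 10.22 in EV. The Ikbkb difference of 0.91 did not pass the threshold (limma adjusted p = 0.0848). The B cell markers Cd79a, Cd79b, Ms4a1, Cd22, Pax5, Cd74 and Blk were on average at log2 12.01 and 12.02 in EV, 11.58 and 11.67 in IKK_K171E and 11.42 and 11.5 in MYD88_L265P. With 2 arrays a group, their number limits the precision. In limma with Benjamini-Hochberg adjustment over all features, 295 features (1.37%) were called for IKK_K171E against EV. For MYD88_L265P against EV 3586 (16.6%) were called, 56% of them higher, or 77.4% with the arrays set to a common median. Between the constructs 377 (1.75%) were called, 49.9% of them higher, or 66.2% with a common median. Of the 7 B cell markers limma called 1 (Cd22) lower in IKK_K171E against EV, with an unadjusted p under 0.05 for 5. In MYD88_L265P against EV it called 4 of these markers lower.

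All 7 genes had lower log2 signal on both IKK_K171E arrays than on both EV arrays. The fall of the IKK_K171E mean below the EV mean is what chose them, so no test is given for it. The differences of the means ran from -1.33 in Tgfb3 to -1.03 in Pold4 with a median of -1.19, beside a median of -0.04 over all features. Of all features 0.413% were called lower for IKK_K171E against EV, and the arrays of these groups did not overlap for 46.0%, with IKK_K171E lower for 28.4% and higher for 17.6%. On both MYD88_L265P arrays the signal was also below both EV arrays. The MYD88_L265P values were not part of the rule, but the EV values were, so this comparison is not independent of the choice. A drop in signal in sorted bulk cells can come from fewer cells of a type or from less RNA per cell, which cannot be told apart here.

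**Figure D1:**
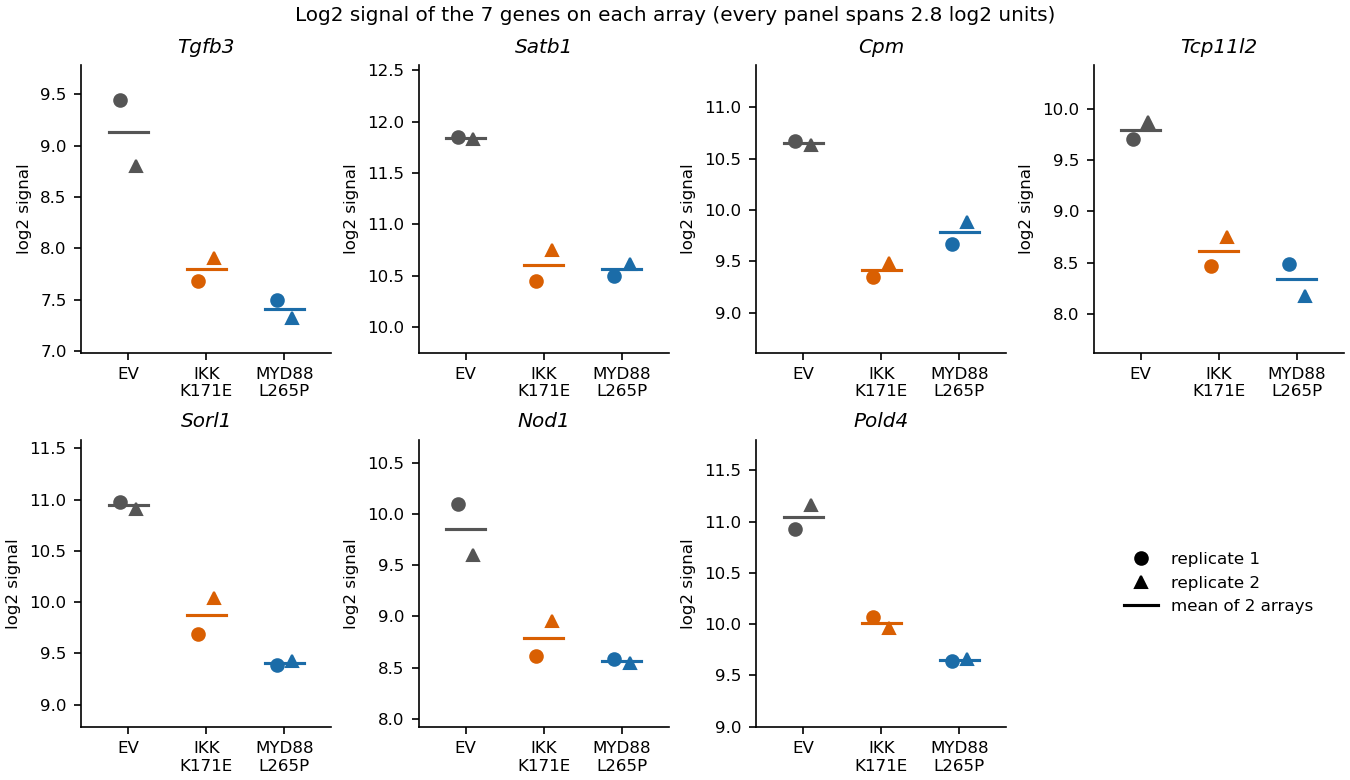
Log2 signal (vertical axis) of the 7 genes on the 6 arrays, in a panel for each gene, with circles for replicate 1, triangles for replicate 2 and lines for the mean of the 2 arrays. In every panel both EV arrays lie above all 4 arrays of the constructs, and EV replicates 1 and 2 are farthest apart in Tgfb3 (9.45 and 8.8).

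Tgfb3, the ligand gene, read log2 9.45 and 8.8 in EV replicates 1 and 2, 7.68 and 7.91 in IKK_K171E, and 7.5 and 7.32 in MYD88_L265P. Its EV arrays were farther apart (SD 0.46, n = 2) than those of any of the other 6 genes, yet the lower of them still lay 0.89 above the highest IKK_K171E array. The means differed by -1.33 (SE 0.21) in IKK_K171E minus EV, which is 2.52-fold lower and the lowest of all 21542 features. Tgfb3 also fell by 1.72 (SE 0.21) in MYD88_L265P, 3.29-fold, with limma adjusted p = 0.00576. Nod1, the sensor gene, shared the wide EV spread with 10.1 and 9.6, and read 8.61 and 8.96 in IKK_K171E and 8.59 and 8.55 in MYD88_L265P. The IKK_K171E difference was -1.07 (SE 0.18), and the fall in MYD88_L265P was -1.29 (SE 0.18, limma adjusted p = 0.00818). Both genes were higher in EV replicate 1 than in EV replicate 2, and on these arrays the dividing-cell genes Mki67, Top2a, Cdk1, Aurka and Bub1 averaged 10.79 and 9.62. The dividing-cell average was 10.87 and 10.58 in IKK_K171E and 11.23 and 11.28 in MYD88_L265P, where Tgfb3 and Nod1 had their lowest means. EV replicate 1 minus replicate 2 was 0.02 in Satb1, 0.05 in Cpm and 0.07 in Sorl1, but -0.16 in Tcp11l2 and -0.24 in Pold4. The part of dividing cells in the spread was not tested.

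Satb1, the chromatin organiser, was steady among EV arrays at 11.85 and 11.83 and read 10.45 and 10.75 in IKK_K171E and 10.5 and 10.61 in MYD88_L265P. Both constructs thus brought it to the same range, with the MYD88_L265P arrays lying between the IKK_K171E arrays. It was lower by -1.24 (SE 0.12) in IKK_K171E minus EV, 2.36-fold, and by -1.28 (SE 0.12, limma adjusted p = 0.00396) in MYD88_L265P minus EV. Satb1 is strongly expressed in T cells, whose 8 measured markers averaged 7.89 to 7.98 in EV, 8.05 to 8.25 in IKK_K171E, and 7.53 to 7.72 in MYD88_L265P. limma called 0 of these 8 markers in IKK_K171E (1 with an unadjusted p under 0.05) and 3 lower in MYD88_L265P. The part of T cells in the result was not tested. Pold4, the polymerase subunit gene, read 10.93 and 11.16 in EV, 10.07 and 9.96 in IKK_K171E and 9.64 and 9.66 in MYD88_L265P. Its 3 groups did not overlap, with EV highest and MYD88_L265P lowest. The IKK_K171E difference was -1.03 (SE 0.11), and the MYD88_L265P fall was -1.4 (SE 0.11, 2.63-fold, limma adjusted p = 0.00302).

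Cpm, the membrane carboxypeptidase gene, read 10.67 and 10.63 in EV, 9.35 and 9.48 in IKK_K171E and 9.67 and 9.88 in MYD88_L265P. It is the only member of the 7 with its lowest mean in IKK_K171E. The difference was -1.24 (SE 0.11, 2.35-fold lower) in IKK_K171E minus EV and -0.87 (SE 0.11, 1.83-fold lower, limma adjusted p = 0.00579) in MYD88_L265P minus EV. Sorl1, the sorting receptor gene, read 10.98 and 10.91 in EV, 9.69 and 10.04 in IKK_K171E and 9.39 and 9.43 in MYD88_L265P. All MYD88_L265P values were below all IKK_K171E values, which were 0.87 or more below EV. The means differed by -1.08 (SE 0.13) in IKK_K171E and by -1.53 (SE 0.13, 2.89-fold lower, limma adjusted p = 0.00326) in MYD88_L265P. Tcp11l2 read 9.71 and 9.87 in EV, 8.47 and 8.75 in IKK_K171E and 8.49 and 8.18 in MYD88_L265P, where the ranges of the constructs overlapped. It was lower than in EV by -1.19 (SE 0.14) in IKK_K171E and by -1.46 (SE 0.14, 2.74-fold, limma adjusted p = 0.00425) in MYD88_L265P.

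Over the 7 genes the fall in MYD88_L265P against EV ran from -1.72 to -0.87 with a median of -1.4, beside -0.11 over all features. All 7 were called lower by limma (adjusted p from 0.00302 to 0.00818), where 7.33% of all features were called lower, and both arrays lay below both EV arrays for all 7, as for 47.9% of features (71.1% did not overlap in either direction). The same EV arrays served in this comparison and in the choice of the genes, so the comparisons with EV are not independent. Among all features ordered from the lowest difference, Tgfb3 stood at place 11, Sorl1 at 15, Tcp11l2 at 19, Pold4 at 21, Nod1 at 35, Satb1 at 37 and Cpm at 166. Nod1 was no longer called when MYD88_L265P replicate 1 (adjusted p = 0.0579) or replicate 2 of that group (adjusted p = 0.0708) was left out. Tgfb3 was no longer called when MYD88_L265P replicate 2 was left out (adjusted p = 0.0551). In these fits the lone array of the group is assumed to vary like the other groups.

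**Figure D2:**
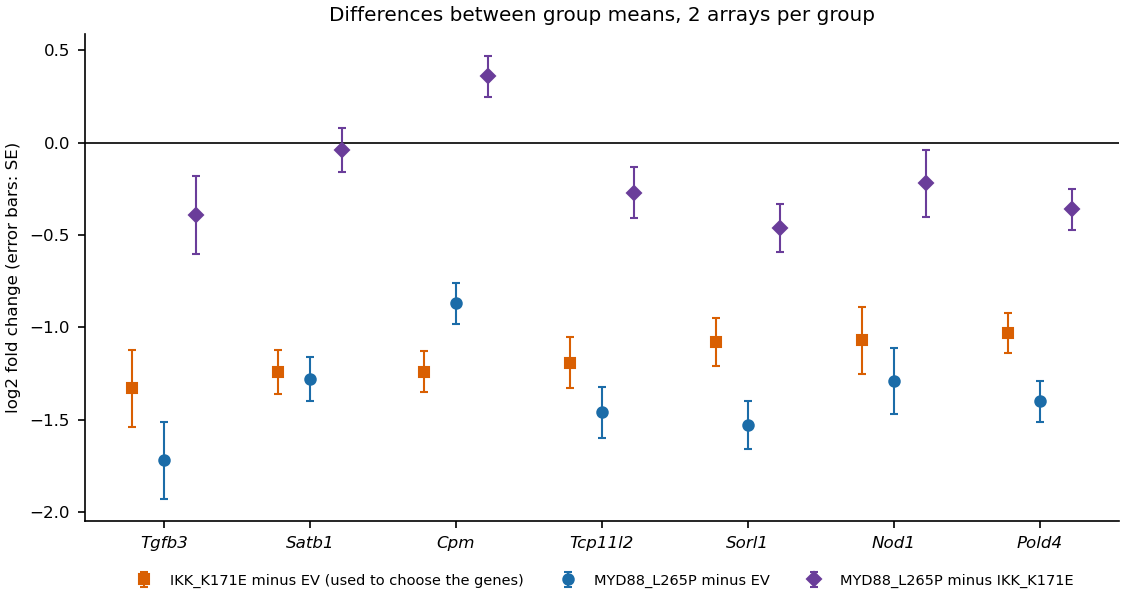
Log2 fold changes (vertical axis) of the 7 genes with their SE as error bars, for IKK_K171E minus EV (squares), MYD88_L265P minus EV (circles) and MYD88_L265P minus IKK_K171E (diamonds). Cpm is the gene with a positive difference between the constructs (0.36), and the other 6 run from -0.46 in Sorl1 to -0.04 in Satb1.

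Set directly against each other, the constructs gave differences that did not pass the threshold for any of the 7 genes. MYD88_L265P minus IKK_K171E ran from -0.46 to 0.36 with a median of -0.27, and limma adjusted p-values from 0.133 to 0.852. At the adjusted threshold 0 of the 7 were called, beside 0.877% of all features called lower and 0.873% higher in MYD88_L265P. At an unadjusted p under 0.05 there were 3, and the share of all features at that looser threshold was not counted. Sorl1 was at -0.46 (95% interval -0.75 to -0.16, adjusted p = 0.133), Pold4 at -0.36 (-0.62 to -0.11, adjusted p = 0.152) and Cpm at 0.36 (0.12 to 0.61, adjusted p = 0.145), which are the 3. Tgfb3 was at -0.39 (-0.87 to 0.1), Tcp11l2 at -0.27 (-0.61 to 0.07), Nod1 at -0.22 (-0.64 to 0.21) and Satb1 at -0.04 (-0.32 to 0.23). These intervals, which are not adjusted for the number of features, reach down to -0.87 in Tgfb3 and -0.32 in Satb1, so it was not shown that the constructs act alike. The arrays of the constructs did not overlap for 4 genes lower in MYD88_L265P (Tgfb3, Sorl1, Nod1 and Pold4) and for Cpm, which was higher, while 57.0% of all features did not overlap in either direction. The IKK_K171E arrays of this comparison are those that chose the genes.

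At the edge of the choice, Pold4 ranked 11 among all features by its difference, and 4 features above it are not among the 7. Adgre1 (F4/80, a macrophage surface receptor) differed by -1.17, Cables1 by -1.06, Pde3b, a phosphodiesterase gene, by -1.04 and Crisp3 by -1.03. EV arrays of Cables1 were at 8.54 and 7.42 and those of Crisp3 at 7.68 and 8.45. The next features below Pold4 were Txnip (-0.99), a brake on glucose uptake, Rasa3 (-0.97) and Ephx1 (-0.97). The 9 measured markers of monocytes and macrophages, Adgre1 among them, averaged 9.13 to 9.22 in EV, 9.5 to 9.72 in IKK_K171E and 8.82 to 9.05 in MYD88_L265P. Of them limma called 1 (Csf1r) higher and 1 (Adgre1) lower in IKK_K171E against EV, with a median difference of 0.53. At an unadjusted p under 0.05 there were 7, of which only Adgre1 was lower. Lyz2 (1.41, adjusted p = 0.0501) and Ccr2 (0.69, adjusted p = 0.0505) lay just above the threshold. Dendritic cell markers (6 measured) averaged 7.97 to 8.07, 8.26 to 8.33 and 7.65 to 7.73 in these groups. NK cell markers (6) averaged 6.93 to 7.02, 6.95 to 7.2 and 6.68 to 6.79, and neutrophil markers (6) 7.26 to 7.34, 7.36 to 7.37 and 7.06 to 7.09. In IKK_K171E against EV limma called 2 dendritic cell markers higher (Itgax and Flt3) and 0 of the NK cell and neutrophil markers. Those with an unadjusted p under 0.05 numbered 2, 3 and 1 in these lists. Plasma cell genes (5) averaged 8.66 to 8.93 in EV, 8.41 to 9.21 in IKK_K171E and 9.95 to 10.3 in MYD88_L265P, and dividing-cell genes (5) 9.62 to 10.79, 10.58 to 10.87 and 11.23 to 11.28. The table has no detection calls, so no marker could be called absent. The part of these lists in the results was not tested.

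Among themselves the 7 profiles over the 6 arrays, each centred on its mean, differed by a root mean square of 0.146 log2 units for the closest pair, Tcp11l2 and Sorl1, and of 0.433 for the farthest, Tgfb3 and Cpm. The median over the 21 pairs was 0.212. Of the other genes, Txnip was the closest to Pold4 at 0.0687, with 11.44 and 11.48 in EV, 10.5 and 10.45 in IKK_K171E, and 10.12 and 10.05 in MYD88_L265P. Hs3st1, a heparan sulfate sulfotransferase gene, was the closest to Nod1 at 0.0883 and followed its EV spread with 9.03 and 8.71. Lax1, an adaptor gene of lymphocyte receptor signalling, came first for Tcp11l2 (0.139) and second for Sorl1 (0.166) and Pold4 (0.154), and Txnip first for Sorl1 (0.141) and second for Tcp11l2 (0.148). Rasa3, a Ras GTPase-activating protein gene (0.156), and Cerk, a ceramide kinase gene (0.158), were nearest to Cpm, and like it they had their lowest means in IKK_K171E. Nearest to Satb1 were 6330407A03Rik (0.161) and Smim14 (0.177), to Tgfb3 Adgre1 (0.217) and Olfr172 (0.248), and after Hs3st1 Nod1 had Sidt1 (0.162). This likeness rests on 6 arrays and on features searched over the whole table, and it is a description only.

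**Figure D3:**
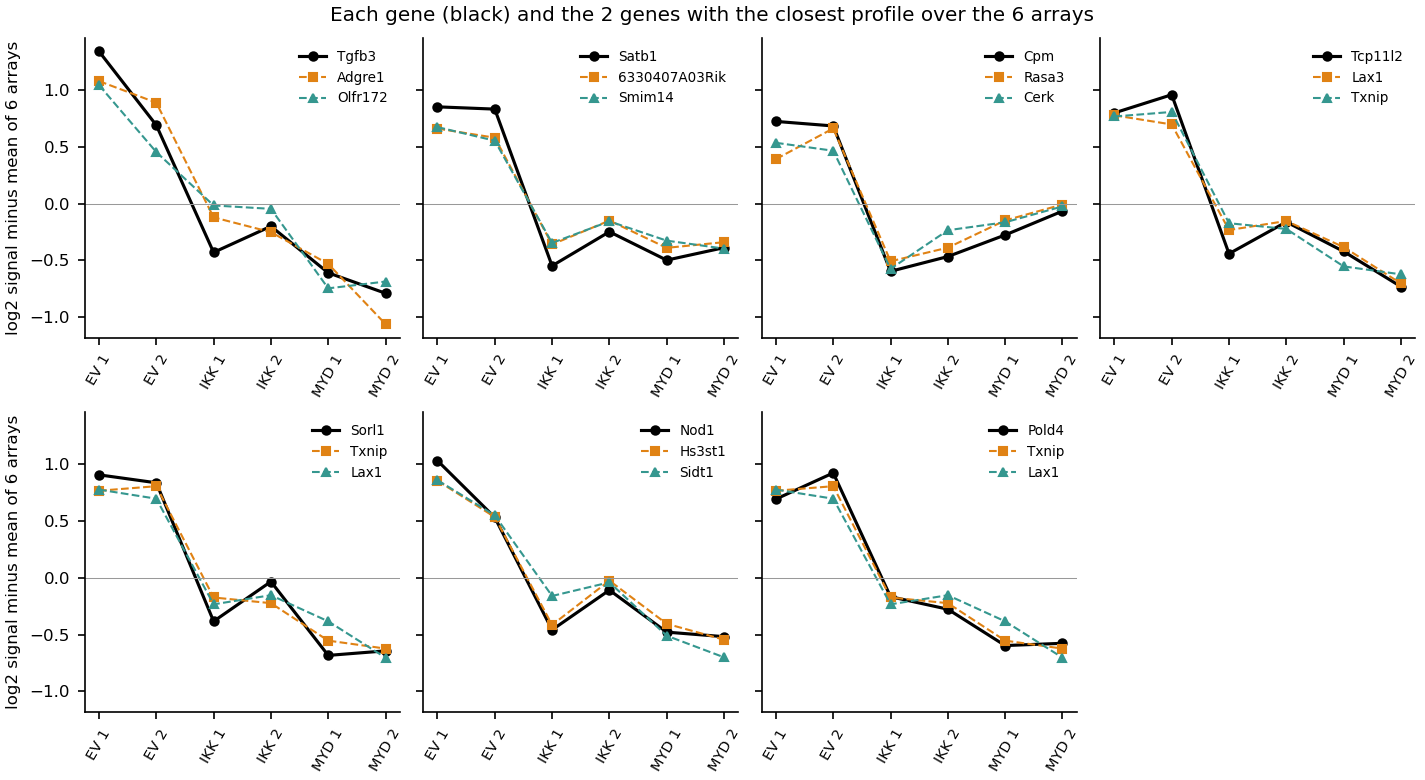
Log2 signal of each of the 7 genes (black) and of the 2 genes with the closest profile (dashed), each minus its mean over the 6 arrays (vertical axis), against the arrays of EV, IKK_K171E (IKK) and MYD88_L265P (MYD). The Txnip profile lies close to that of Pold4 on all 6 arrays (root mean square difference 0.0687), and Cpm with Rasa3 and Cerk has its lowest point in IKK_K171E replicate 1.

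Of the 14 nearest measured neighbours of the 7 genes on their chromosomes, limma called 0 in either direction for IKK_K171E against EV (6 had an unadjusted p under 0.05), and 4 lower (28.6%, beside 7.33% of all features) and 1 higher for MYD88_L265P against EV. Mdm2, the gene of the p53 ubiquitin ligase, lies 1.52 kb from Cpm and differed by 0.02 in IKK_K171E minus EV and 0.11 in MYD88_L265P minus EV. Beside Tgfb3, Ttll5 at 2.98 kb rose by 0.39 in MYD88_L265P (adjusted p = 0.0378) and Ift43 at 3.52 kb fell by 0.41, with an adjusted p that rounds to 0.05 and lies just below it. Clcf1, a cytokine gene 8.39 kb from Pold4, fell by 0.64 in MYD88_L265P (adjusted p = 0.0167) and was at -0.46 in IKK_K171E, while Ssh3 on the other side was at -0.12 and -0.26. Beside Nod1, Ggct fell by 0.76 in MYD88_L265P (adjusted p = 0.00628) and was at -0.38 in IKK_K171E, and Znrf2 was at -0.22 and -0.41. Tbc1d5, 555 kb from Satb1, fell by 0.56 in MYD88_L265P (adjusted p = 0.0249) and was at -0.16 in IKK_K171E.

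Genes that share a pathway, complex or family with the 7 were read from 8 lists. Since the 7 were chosen as falls among the lowest in IKK_K171E, smaller differences of the listed genes there were fixed by the choice. Of 156 measured genes, limma called 3 higher (1.92%) and 2 lower (1.28%) for IKK_K171E against EV, where 0.956% and 0.413% of all features were called. In MYD88_L265P against EV it called 23 higher (14.7%) and 16 lower (10.3%), beside 9.32% and 7.33%. This balance turned with the scaling: 14 were higher and 20 lower under quantile normalization, and 30 higher and 8 lower with a common median. Between the constructs 2 were higher and 3 lower in MYD88_L265P. The 39 genes called in MYD88_L265P against EV numbered 2 without MYD88_L265P replicate 1, 0 without MYD88_L265P replicate 2 and 12 without EV replicate 2. The 5 in IKK_K171E numbered 9 without EV replicate 1 and 0 without EV replicate 2, IKK_K171E replicate 1, MYD88_L265P replicate 1 or MYD88_L265P replicate 2. The 5 between the constructs numbered 0 without either IKK_K171E array or MYD88_L265P replicate 2, and 1 without MYD88_L265P replicate 1. Descriptions number the arrays of each group 1 and 2, while titles number them 2 and 3 in EV and 1 and 3 in IKK_K171E and MYD88_L265P. With a block from the titles' numbers, limma no longer called Nlrp3, Slc15a3 and Ets1 in IKK_K171E against EV, nor Smad3, Wapl, Bach2, Ets1, Ebf1, Klf3, Igf2r, Snx27, Lrp8 and Birc2 in MYD88_L265P against EV. No other array shares the title number of EV replicate 1, so in that fit EV rests on EV replicate 2 alone. Pole2 was there at 1.25, Rfc4 at 0.86, Pola1 at 1.28 and Lig1 at 1.15 in IKK_K171E against EV. Without EV replicate 2 and without a block they were at 0.57, 0.59, 0.41 and 0.49. Each single call below rests on all 6 arrays without a block.

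**Figure D4:**
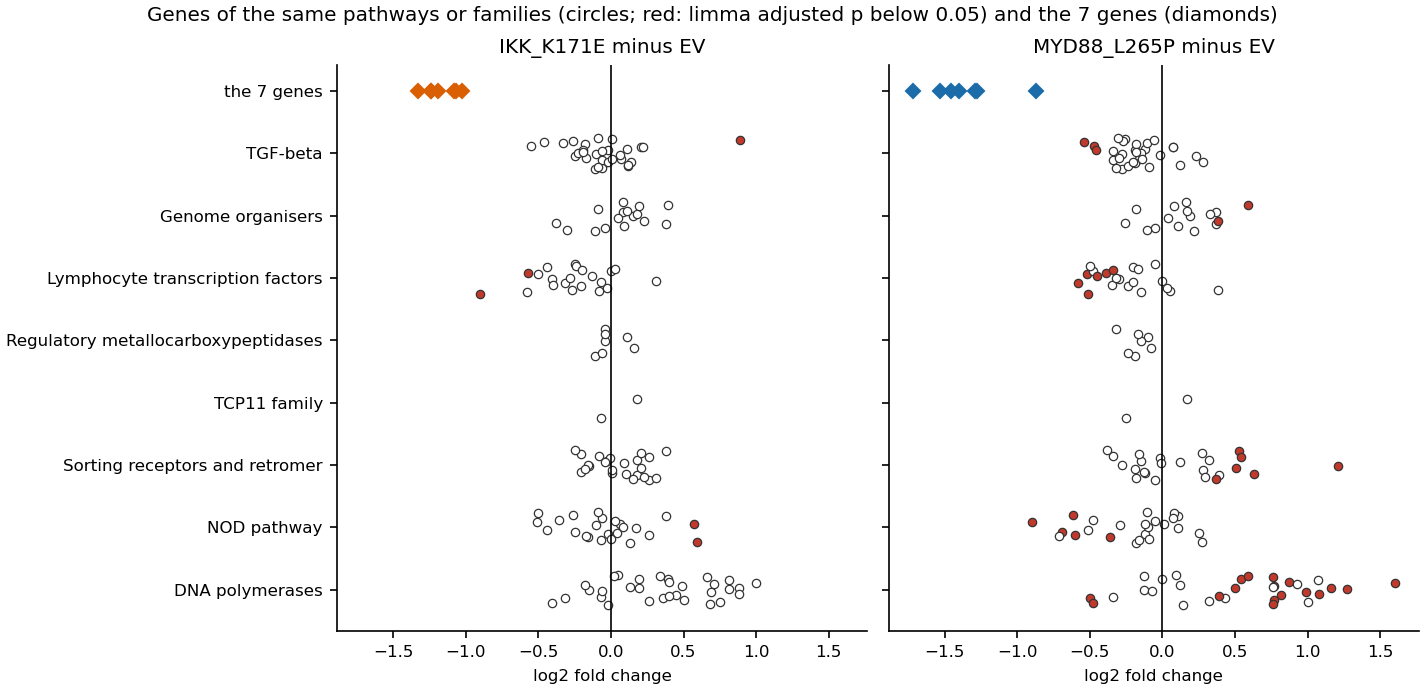
Log2 fold changes (horizontal axis) of the genes in 8 lists related to the 7 genes (circles, filled red at limma adjusted p below 0.05) and of the 7 genes (diamonds), for IKK_K171E minus EV on the left and MYD88_L265P minus EV on the right. DNA polymerase genes lie mostly to the right of 0 in both (medians 0.39 and 0.59), opposite to Pold4 at -1.03 and -1.4.

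Around Tgfb3, the other TGF-beta ligand genes differed little. Tgfb1 read 9.98 and 9.51 in EV, 9.65 and 9.62 in IKK_K171E and 9.46 and 9.48 in MYD88_L265P, differences of -0.11 and -0.28 that did not pass (adjusted p = 0.76 and 0.207). Tgfb2 was at -0.02 and -0.19. Of 31 measured TGF-beta genes 1 was called higher and 0 lower in IKK_K171E (median -0.06): Tgfbi, the gene of a TGF-beta-induced matrix protein, with 9.83 and 9.42 against 8.69 and 8.77 in EV (0.89, SE 0.14, limma adjusted p = 0.0383). Tgfbi was lower in MYD88_L265P than in IKK_K171E by -0.95 (adjusted p = 0.0253). In MYD88_L265P against EV 0 were called higher and 3 lower (median -0.19): Tgfbr2, the gene of a TGF-beta receptor subunit (-0.54, adjusted p = 0.0467), Smad3, a transcription factor that the receptor activates (-0.47, adjusted p = 0.0221), and Smad7, the gene of a feedback inhibitor (-0.46, adjusted p = 0.0288). With the arrays set to a common median Tgfbr2 (adjusted p = 0.0894) and Smad7 (adjusted p = 0.0592) did not pass. In IKK_K171E against EV Smad3 was at -0.55, just above the threshold (limma adjusted p = 0.0505). Tgfbr2 was there at -0.46 (adjusted p = 0.168) and Smad7 at -0.19 (adjusted p = 0.403). Of the 31 genes 7 had an unadjusted p under 0.05 in that comparison, in either direction.

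Around Nod1, the related sensor gene Nod2 read 7.93 and 7.67 in EV, 7.86 and 8.01 in IKK_K171E and 7.76 and 7.49 in MYD88_L265P, and was not called. Of 24 measured genes of the NOD pathway limma called 2 higher and 0 lower in IKK_K171E (median -0.04, 6 with an unadjusted p under 0.05). The 2 called were Slc15a3, a transporter of bacterial peptides (0.59, SE 0.1, adjusted p = 0.0469, and 0.0501 with a common median), and Nlrp3, an inflammasome sensor (0.57, SE 0.09, adjusted p = 0.0401). Nlrp3 was dim, with 6.94 and 6.88 in EV and 7.54 and 7.43 in IKK_K171E, among the lowest 25% of features by mean signal. In MYD88_L265P 0 rose and 5 fell (median -0.12). Slc15a4, a further peptide transporter gene, fell by 0.9 (adjusted p = 0.0118), Nlrc5, a regulator of MHC class I genes, by 0.69 (adjusted p = 0.0135), Slc46a3 by 0.62 (adjusted p = 0.0184) and Birc2, the gene of the ubiquitin ligase cIAP1, by 0.6 (adjusted p = 0.0174). Between the constructs Birc2 (-0.86) and Nlrp3 (-0.69) were lower in MYD88_L265P, both at adjusted p = 0.0196.

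Around Pold4, of the other 3 subunits of DNA polymerase delta limma called Pold2 in MYD88_L265P against EV and none in IKK_K171E. Pold2 read 9.59 and 9.27 in EV, 10.22 and 9.61 in IKK_K171E and 10.31 and 10.09 in MYD88_L265P, and rose by 0.77 in MYD88_L265P (SE 0.21, limma adjusted p = 0.0458, and 0.0632 under quantile normalization). Pold3 was at 0.36 and 0.43 (adjusted p = 0.209 and 0.0576, the latter 0.0371 with a common median) and the catalytic subunit gene Pold1 at -0.02 and 0.14. Of 31 measured genes of DNA polymerases, clamp and ligase, 0 were called in IKK_K171E (median 0.39, 18 with an unadjusted p under 0.05), and 15 rose and 2 fell in MYD88_L265P (median 0.59, beside -0.11 over all features). The 2 that fell, named after their values were seen, were the repair polymerase genes Poli (-0.5, adjusted p = 0.0179) and Polm (-0.48, adjusted p = 0.0155). The largest rises were in Pole2, a subunit of polymerase epsilon (1.6, SE 0.29, adjusted p = 0.0154), Rfc4 of the clamp loader (1.27, SE 0.19, adjusted p = 0.0101), Pola1 of the primase complex (1.16, adjusted p = 0.0321) and Lig1, DNA ligase 1 (1.08, adjusted p = 0.0273). EV replicate 2 was low for these genes, with Pola1 at 10.53 and 9.59 and Lig1 at 10.01 and 9.23 in EV replicates 1 and 2. Without EV replicate 2 Pola1 and Lig1 were both at 0.69, and Lig1 (adjusted p = 0.0535) and Pold2 (adjusted p = 0.161) were not called. The dividing-cell genes moved alongside, as given above, and their part was not tested.

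Around Satb1, limma called 0 of 16 measured genome organisers in IKK_K171E (median 0.08, 5 with an unadjusted p under 0.05), and in MYD88_L265P 2 rose and 0 fell, the cohesin gene Smc3 (0.59, adjusted p = 0.026) and its release factor Wapl (0.38, adjusted p = 0.0321, and not called under quantile normalization). Of 21 measured lymphocyte transcription factors limma called 0 higher and 2 lower in IKK_K171E (median -0.25, 11 with an unadjusted p under 0.05). Bach2, a repressor that holds back plasma cell differentiation, read 10.37 and 10.32 in EV, 9.3 and 9.59 in IKK_K171E and 9.7 and 9.97 in MYD88_L265P (-0.9 in IKK_K171E, SE 0.13, adjusted p = 0.0375). Ets1 was lower by -0.57 (SE 0.09, adjusted p = 0.0432). In MYD88_L265P 0 rose and 6 fell (median -0.3), led by Ikzf3, the gene of Aiolos (-0.58, adjusted p = 0.0241), Ebf1, a factor of B cell identity (-0.52, adjusted p = 0.0296), Bach2 (-0.51, adjusted p = 0.0448) and Klf3 (-0.45, adjusted p = 0.0398). With a common median Ebf1 (adjusted p = 0.0501), Bach2 (adjusted p = 0.0787) and Klf3 did not pass. In IKK_K171E against EV Ebf1 was at -0.5 (limma adjusted p = 0.0934), close to its fall in MYD88_L265P. Ikzf3 was there at -0.32 (adjusted p = 0.249) and Klf3 at -0.13 (adjusted p = 0.633). Pou2f2, the gene of OCT2, was higher in MYD88_L265P than in IKK_K171E by 0.65 (adjusted p = 0.0357, and not called under quantile normalization). In MYD88_L265P against EV Pou2f2 was at 0.38, just above the threshold (limma adjusted p = 0.0501). With a common median it was called higher there (0.46, adjusted p = 0.0286).

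Around Cpm, limma called 0 of 7 related metallocarboxypeptidase genes in each of the 3 comparisons, with an unadjusted p under 0.05 for 0 in IKK_K171E against EV, 1 in MYD88_L265P against EV and 2 between the constructs. Cpd read 11 and 10.9 in EV, 10.82 and 10.87 in IKK_K171E and 10.72 and 10.8 in MYD88_L265P, and Cpe was at 0.11 and -0.1. Around Tcp11l2, neither Tcp11 nor Tcp11l1 was called, and Tcp11l1 was at 0.18 in IKK_K171E and 0.17 in MYD88_L265P. Around Sorl1, limma called 0 of 24 measured sorting receptor and retromer genes in IKK_K171E (median 0.05, 5 with an unadjusted p under 0.05), and in MYD88_L265P 6 rose and 0 fell (median 0.05). Sort1, the gene of the related receptor sortilin, read 7.33 and 7.35 in EV, 7.52 and 7.67 in IKK_K171E and 7.27 and 7.32 in MYD88_L265P and was not called. Vldlr, a receptor of the LDL receptor family, read 7.44 and 7.51 in EV, 7.31 and 7.35 in IKK_K171E and 8.26 and 9.12 in MYD88_L265P (1.21 over EV, SE 0.24, limma adjusted p = 0.0208). It was the gene with a call between the constructs in this list (1.36, adjusted p = 0.0457). Igf2r, a receptor for lysosomal enzymes, rose by 0.63 in MYD88_L265P (adjusted p = 0.0333, and not called under quantile normalization), Snx27 by 0.54 (adjusted p = 0.0271) and Lrp8 by 0.53 (adjusted p = 0.025), while Sorl1 fell by 1.53.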

How the data were processed

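The authors deposited log2 signal per feature for 6 Affymetrix mouse ST 1.0 arrays. The submitters' processing notes name oligo and limma without versions. Background correction, normalization and genome build are not given in the sources used here. The table holds 24743 features. Those with exactly 1 symbol in the platform annotation, 21542, were tested, and 1522 with several and 1679 with none were left out. No value was transformed or filtered.

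A linear model with a mean per group took in all 6 arrays (limma 3.58.1, R 4.3.3, eBayes; residual degrees of freedom 3, prior 4.17). Tests were two-sided, with Benjamini-Hochberg adjustment across all tested features, and called below 0.05. The code was tested on simulated data. A gene in a list was represented by its brightest feature. Lists held 163 genes, of which 156 were measured.

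The 7 genes and the lists were chosen with earlier results of these data known. Named were all 7 genes, their closest relatives, up to 4 called genes of the largest change per list and comparison, the 2 closest profiles and the nearest neighbours. Alternatives covered 2 replicate blocks, scaling, the variance model, array weights, the features and arrays used, and leaving out each array.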

Additional observations from a re-analysis of the deposited data

How the results depend on the processing

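The fall of the 7 genes in MYD88_L265P against EV kept its direction in all 15 alternatives, and the number called was 7 in the 9 that left out no array and 5 to 7 with an array left out. The number called between the constructs was 0 in all 15, and no called result of a gene named reversed. The number of features called between IKK_K171E and EV, 295, was 131 with all rows of the table, 123 with array weights, 51 with only the 2 groups compared, 487 with trend and robust moderation, and 0 to 506 with an array left out. With the replicate block it was 626, and with a replicate block from titles, where EV rests on EV replicate 2 alone, 609. Without IKK_K171E replicate 1 it was 0, without either MYD88_L265P array 51, without EV replicate 2 139, without IKK_K171E replicate 2 490 and without EV replicate 1 506. The cause was not tested. For MYD88_L265P against EV the number was 1320 when EV replicate 2 was dropped, and 415 and 191 when replicate 1 or 2 of MYD88_L265P was. Between the constructs it was 42 and 14 without IKK_K171E replicate 1 and 2, and 87 and 33 without MYD88_L265P replicate 1 and 2. Leaving out an array gave 191 to 3554 for MYD88_L265P against EV (3586) and 14 to 592 between the constructs (377), which became 592 with only the 2 groups compared and 1251 with the replicate block from titles.

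The 5 related genes called in IKK_K171E became 0 with all rows of the table, array weights or only the 2 groups compared, 13 with the replicate block, 12 with the replicate block from titles, and 0 to 9 with an array left out. Those called in MYD88_L265P against EV, 39, became 0 to 37 with an array left out. The 5 between the constructs became 3 with all rows of the table, 13 with the replicate block from titles, and 0 to 6 with an array left out. The replicate block from titles ended 3 of the named calls in IKK_K171E against EV and 10 in MYD88_L265P against EV. Of 33 named calls of related genes, 0 were called in every alternative. Arrays with the same replicate number in the descriptions shared deviations weakly (correlations 0.105 to 0.211 over features). The labels do not say that a number marks a shared mouse or day. The replicate block changed no call of the 7 genes in MYD88_L265P against EV. With 2 arrays a group, the 95% intervals of the 7 genes reached 0.248 to 0.483 log2 units to each side.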
